A study of Mus musculus with 4 samples.

Results

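The genes described here are those of the collagens, of proteins that organise the extracellular matrix around them, and of the liver cells that make most of that matrix, the hepatic stellate cells. They were measured in cultures of primary Kupffer cells, macrophages that live in the sinusoids of the mouse liver. A gene was included if its symbol had the form of a collagen chain (Col, a number, a, a number) or was 1 of 18 named matrix and mesenchymal genes. The array carried 62 such genes on 94 probes, out of 45616 genes and 56605 probes in all. Of the 62 genes, 44 were collagens.

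RNA came from Kupffer cells of male C57BL/6 mice, 8 weeks old, obtained by collagenase perfusion and a Percoll gradient and kept in culture. One group (MaR1) received maresin 1 at 200 nM for 24 h, and the other (Veh) received the ethanol vehicle for the same time. Both groups were in RPMI medium with 0.1% serum, carried no engineered allele, and had 2 one-colour Agilent arrays each. The labels do not say whether the replicates came from separate mice or cultures, so the p-values cover no more than the variation between these 4 arrays, and that may be technical.

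Collagens are made as procollagen chains that fold into triple helices, are exported and trimmed, and assemble into fibrils, sheets or filaments that lysyl oxidases and transglutaminases crosslink. In the liver the main source is the hepatic stellate cell, a vitamin A-storing pericyte of the sinusoid that turns into a contractile, matrix-producing myofibroblast after injury. Macrophages make few fibrillar collagens but secrete fibronectin, osteopontin and other adhesive proteins, and they signal to stellate cells through growth factors and cytokines.

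A level below is the processed signal relative to the 75th percentile of its array, in log2 units, so a level of 0 is a probe at that percentile. A difference is the MaR1 mean minus the Veh mean of such levels, with its standard error, from a limma fit over all 24067 genes above background, and a gene was called if its Benjamini-Hochberg adjusted p was under 0.05. With 2 arrays against 2, permuting the arrays cannot give a two-sided p below 0.333, so each call rests on the spread that limma shares between genes. Array depth was similar: 54.4% to 55.6% of probes were well above background, and the 75th percentile was 961 and 988 on the Veh arrays and 946 and 847 on the MaR1 arrays. The Veh arrays sat side by side on the slide, as did the MaR1 arrays, so position and treatment cannot be told apart. The labelled cell type was checked with 14 Kupffer cell and macrophage markers, which were all above background. Marco, a scavenger receptor of Kupffer cells, had levels of 8.46 and 8.39 on the Veh arrays and 8.24 and 8.24 on the MaR1 arrays.

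A gene could be tested if both arrays of a group, Veh or MaR1, measured it well above background, which held for 38 of the 62 genes. The other 24 were not tested, and 23 of them were well above background on no array. These were Col2a1, Col5a2, Col11a1 and Col27a1 of the fibrillar collagens, Col4a3, Col4a4, Col4a5 and Col4a6 of the basement membrane, Col6a2, Col6a4, Col6a5 and Col6a6 of the beaded filaments, Col8a1, Col8a2, Col10a1, Col9a1, Col12a1, Col19a1, Col15a1, Col25a1 and Col28a1, and Des and Lrat. The remaining gene, the lysyl oxidase Lox, was well above background on 1 MaR1 array. Of the 38 tested genes, 36 were well above background on all 4 arrays.

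With maresin 1, 7 of the 38 tested genes were called higher and 5 lower. The higher ones were the matricellular gene Postn, the collagens Col13a1, Col24a1, Col4a1 and Col4a2, the adhesive protein gene Fn1 and the transglutaminase gene Tgm2. The lower ones were Pdgfra, Loxl2, Col7a1, Dcn and Tagln. Over all genes tested, 24.0% were called in either direction, 11.2% higher and 12.7% lower, beside 31.6% of the 38 genes, a share near that of all genes. The median difference was -0.10 over the 38 genes and -0.02 over all genes. Groups did not overlap for 11 genes with higher MaR1 levels and 16 with lower ones, against 32.8% and 36.8% of all genes. Because these are bulk cultures, fewer cells of a type and less RNA per cell cannot be told apart for any gene below.

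**Figure D1:**
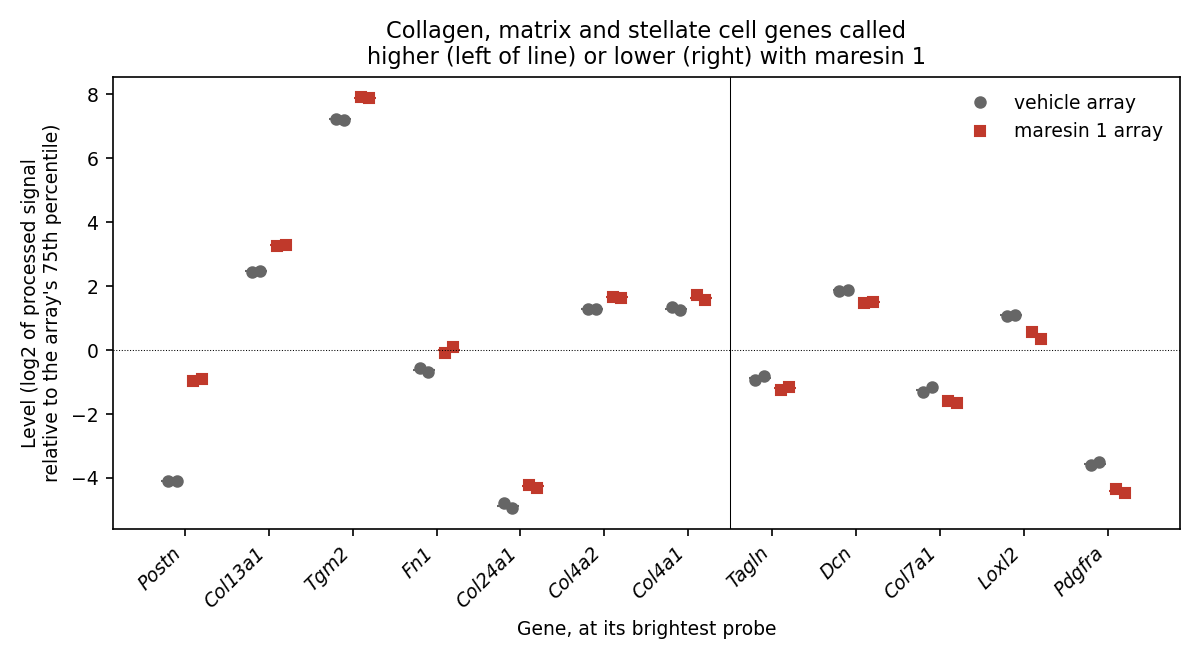
Levels (log2 of processed signal relative to the array's 75th percentile, y axis) of the 12 called genes on each of the 4 arrays, with Veh arrays as circles, MaR1 arrays as squares and higher genes left of the line. Postn rises from -4.10 and -4.08 to -0.96 and -0.91, while the other genes move by less than 1.

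Periostin (Postn), a matricellular protein that binds collagen and integrins and promotes collagen crosslinking, showed the largest difference. Its levels were -4.10 and -4.08 on the Veh arrays and -0.96 and -0.91 on the MaR1 arrays, which correspond to processed signals of 56.2 and 58.3 against 486 and 450. The MaR1 arrays lay far above both Veh arrays. The difference was 3.15 ± 0.06 on the log2 scale, 8.90-fold (adjusted p = 0.00104). The 3 probes of the gene gave differences from 2.87 to 3.15, each called, although 1 of them was well above background on neither Veh array. The call held whichever array was left out (adjusted p at most 0.0138) and in the other alternatives that could be run, and its size was 2.10 after normexp background correction of the median spot signal followed by quantile normalization, 2 changes made together (the joint normexp setting below).

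The gene has 2 transcription starts in the RefSeq promoter table (GRCm38.p6), and the 250 bases before each are printed because Postn moved most. Both lie on the plus strand, at chr3:54359017-54359266 and chr3:54360857-54361106. Capitals in the first mark TGACCT, the AGGTCA nuclear receptor half-site read on the other strand, whose first printed base lies 138 bases before the start. Capitals in the second mark a TATAAA box, 26 bases before the start.
Postn start 1: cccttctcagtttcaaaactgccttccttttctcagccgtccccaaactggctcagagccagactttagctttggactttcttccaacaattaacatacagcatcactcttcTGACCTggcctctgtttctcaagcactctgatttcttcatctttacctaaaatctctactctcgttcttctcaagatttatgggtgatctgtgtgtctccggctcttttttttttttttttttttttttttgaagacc
Postn start 2: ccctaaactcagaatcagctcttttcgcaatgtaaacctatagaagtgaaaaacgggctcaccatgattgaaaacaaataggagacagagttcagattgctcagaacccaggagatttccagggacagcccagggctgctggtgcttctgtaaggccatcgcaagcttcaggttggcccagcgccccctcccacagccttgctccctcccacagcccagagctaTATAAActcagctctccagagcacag
Searched on both strands, AGGTCA was in 9 of the 50 windows of the collagen and matrix genes in the table and in 14.0% of 32851 windows of that length. TATAAA was in 7 of the 50 windows and 12.4% of them all, and the STAT6-type motif TTC, any 4 bases, GAA was in 1 window (Bgn) and 5.85% of them all. A match is to these letters and is not a bound site. The table held 45 of the 62 genes.

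Fibronectin (Fn1), the glycoprotein that seeds matrix assembly and binds integrins, had levels of -0.57 and -0.69 in Veh and -0.10 and 0.09 in MaR1, without overlap. The difference was 0.63 ± 0.09, 1.54-fold (adjusted p = 0.0184). A second probe gave 0.60 ± 0.16 with an adjusted p over probes of 0.064, so it was not called on its own. The call was lost without Veh replicate 1 (adjusted p = 0.0710), Veh replicate 2 (0.0852) or MaR1 replicate 2 (0.0732), and when dim probes were not filtered out (0.0594).

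Osteopontin (Spp1), an adhesive phosphoprotein of macrophages and bile duct cells, had levels of 0.49 and 0.62 in Veh and 0.77 and 0.80 in MaR1. The groups did not overlap, but the difference of 0.23 ± 0.07 had an adjusted p of 0.0856 and was not called. Tgfbi, a TGF-beta-induced adhesive protein, had levels of 1.45 and 1.46 in Veh and 1.29 and 1.18 in MaR1, a difference of -0.22 ± 0.07 (adjusted p = 0.0847). Both were called in the joint normexp setting and with an intensity trend. Sparc, a collagen-binding matricellular protein, had levels of 6.65 and 6.68 in Veh and 6.60 and 6.60 in MaR1, and its difference of -0.07 ± 0.05 was not called (adjusted p = 0.414).

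Among the fibrillar collagens, 7 of 11 genes were tested and 1 was called. Col24a1, a minor fibrillar chain, had levels of -4.80 and -4.95 in Veh and -4.22 and -4.31 in MaR1. The groups did not overlap, and the difference was 0.61 ± 0.08, 1.52-fold (adjusted p = 0.0147). The probe lay near the bottom of the measured range, since the dimmest probes well above background were at -5.54 to -5.75, and in the joint normexp setting the difference was 0.19 and the call was lost (adjusted p = 0.0530). It was also lost without Veh replicate 2 (0.0648), MaR1 replicate 1 (0.0705) or MaR1 replicate 2 (0.0686), and with no filter (0.0594).

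The chains of the main scar collagens were dim and not called. Col1a1, the alpha-1 chain of type I collagen, had levels of -5.22 and -4.73 in Veh and -5.42 and -5.21 in MaR1, a difference of -0.34 ± 0.19 (adjusted p = 0.253). On this probe the groups overlapped, since MaR1 replicate 2 lay just above Veh replicate 1. A second, dimmer Col1a1 probe gave -0.49 ± 0.20 (adjusted p over probes = 0.152) and was not called. Its levels of -5.21 and -5.00 in Veh and -5.86 and -5.33 in MaR1 did not overlap, but only 1 MaR1 array was well above background. Col1a2, its alpha-2 partner, had levels of -2.83 and -2.65 in Veh and -3.06 and -3.29 in MaR1, which did not overlap. Its difference of -0.44 ± 0.11 missed the threshold (adjusted p = 0.0596), and it was called with a stricter filter on dim probes (0.0474) and with an intensity trend (0.0134). Col3a1, of type III collagen, had levels of -4.96 and -4.55 in Veh and -5.00 and -4.57 in MaR1, a difference of -0.03 ± 0.21 (adjusted p = 0.925). Col5a1 and Col5a3, of the type V collagen that starts fibrils, gave -0.58 ± 0.18 (adjusted p = 0.0811) and -0.65 ± 0.21 (adjusted p = 0.0945), while Col11a2 gave -0.13 ± 0.09 (adjusted p = 0.360). Of 13 alternatives, Col5a1 was called lower in 2, with an intensity trend and with a replicate block. Col5a3 was called lower in 1, with an intensity trend (0.0360).

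Of the 6 basement membrane chains, the 2 that could be tested were the pair that make the most widespread type IV network. Col4a1 had levels of 1.34 and 1.25 in Veh and 1.73 and 1.56 in MaR1. Col4a2 had levels of 1.30 and 1.29 in Veh and 1.67 and 1.64 in MaR1. Neither pair of groups overlapped, and the differences were 0.35 ± 0.08 (1.27-fold, adjusted p = 0.0495) and 0.36 ± 0.05 (1.29-fold, adjusted p = 0.0186). Both calls were lost whichever array was left out, Col4a1 with adjusted p from 0.0810 to 0.186 and Col4a2 from 0.0776 to 0.100. Col4a1 also lost its call after quantile normalization (0.0719), in the authors' value table (0.0596), without a filter on dim probes (0.0629) and with a replicate block (0.0581), and Col4a2 lost it with a replicate block (0.0510).

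These genes lie on opposite strands, and by their annotated starts the first bases of both transcripts overlap in a short stretch. The stretch is shown because both genes were called higher. It is 22 bases long at chr8:11312805-11312826 (GRCm38.p6, plus strand), with 72.7% G or C, and carries none of the 3 motifs. No capitals are marked.
Col4a1 and Col4a2: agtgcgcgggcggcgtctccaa

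Col7a1, the anchoring fibril collagen of epithelial junctions, was called lower. Its levels were -1.32 and -1.16 in Veh and -1.59 and -1.66 in MaR1, without overlap, and the difference was -0.38 ± 0.08 (adjusted p = 0.0379), 1.30-fold lower. The call was lost whichever array was left out (adjusted p 0.0800 to 0.149), with no filter (0.0594) and with a replicate block (0.0772).

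Membrane-spanning collagens carry a single pass through the plasma membrane and a shed triple-helical ectodomain, and 3 of 4 were tested. Col13a1 had levels of 2.43 and 2.49 in Veh and 3.25 and 3.30 in MaR1, with every MaR1 array above both Veh arrays. The difference was 0.81 ± 0.06, 1.76-fold (adjusted p = 0.00463), and a second probe gave 0.85 ± 0.07. It was called whichever array was left out (adjusted p at most 0.0420). Col17a1 gave 0.25 ± 0.07 (adjusted p = 0.0691), and in 2 of the 13 alternatives it was called higher, after quantile normalization (0.0445) and in the authors' table (0.0313). Col23a1 gave 0.32 ± 0.56 (adjusted p = 0.703), because the MaR1 arrays themselves differed, at -4.93 and -3.31.

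No other collagen was called. Col6a1 and Col6a3 of the beaded filaments gave -0.18 ± 0.07 and -0.04 ± 0.13. The 6 tested fibril-associated chains ranged from -0.38 (Col9a3) to 0.22 (Col22a1), and Col9a3's second probe gave 0.11, so its probes disagreed in sign. Col18a1, whose end fragment is endostatin, gave 0.08 ± 0.08, and Col26a1 gave -0.10 ± 0.29. Over the 23 tested collagens, 4 were called higher and 1 lower, with a median difference of -0.10. In all, 21.7% of the collagens were called, a share near the 24.0% of all genes. Leaving out MaR1 replicate 1 brought Col14a1 to -0.65 (adjusted p = 0.0399) and Col23a1 to 1.13 (adjusted p = 0.0241), while leaving out MaR1 replicate 2 gave 0.19 and -0.50.

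**Figure D2:**
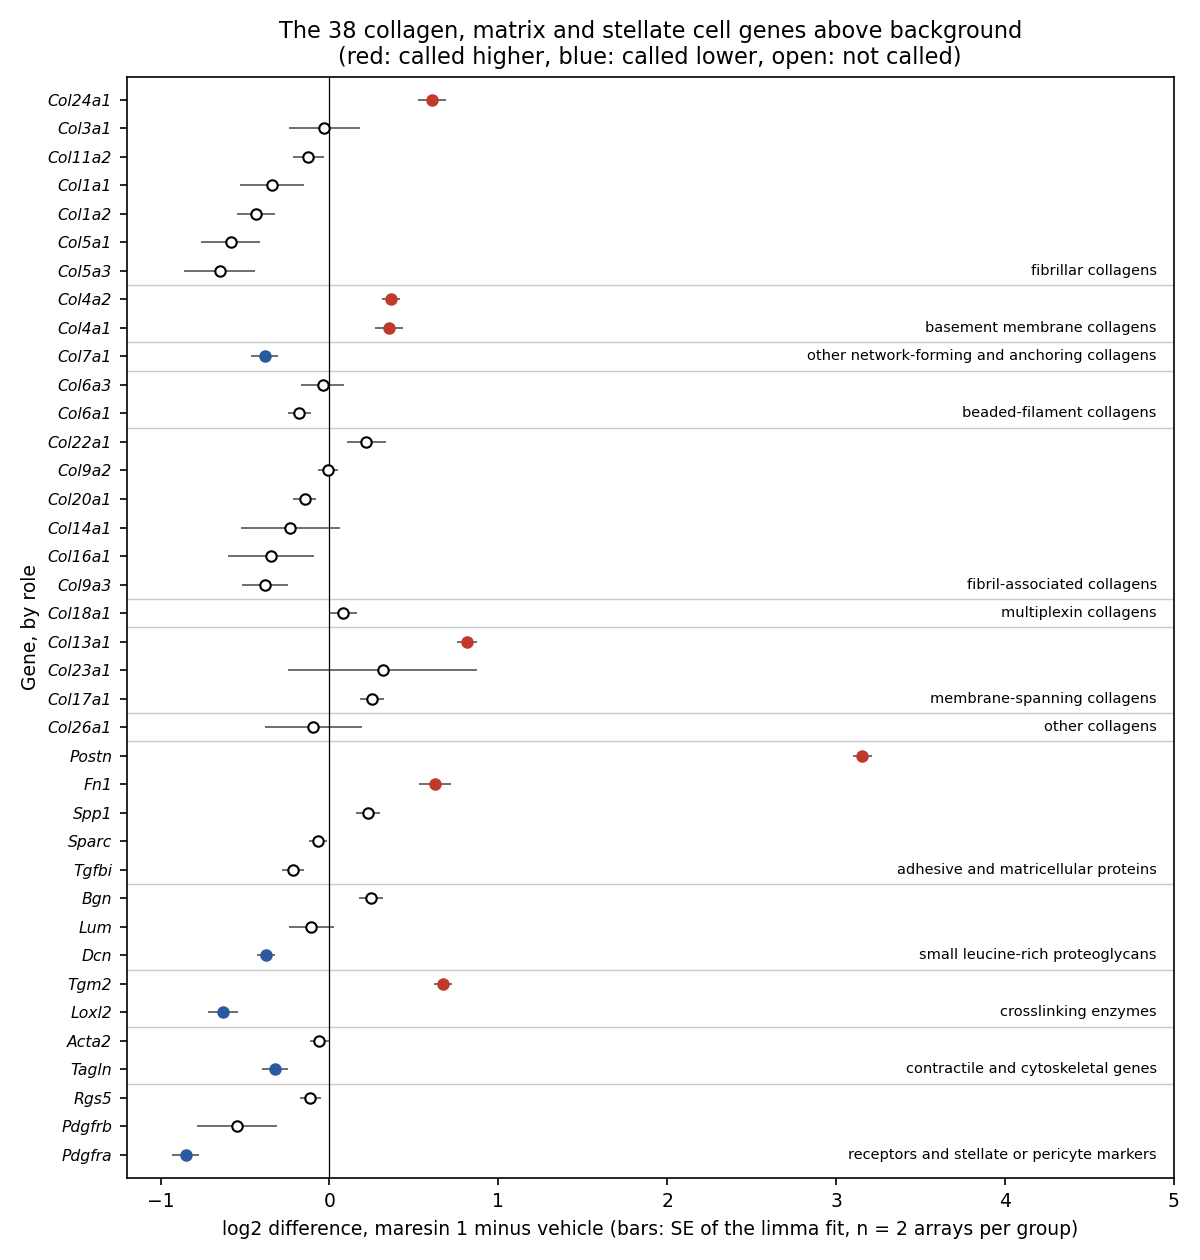
Differences on the log2 scale (x axis, with the standard error as a bar) of the 38 tested genes grouped by role, in red where called higher, blue where called lower and open where not called. Postn, at 3.15, lies far to the right of the others, which range from -0.85 for Pdgfra to 0.81 for Col13a1.

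Small leucine-rich proteoglycans coat collagen fibrils and bind growth factors. Decorin (Dcn), which also binds TGF-beta, had levels of 1.86 and 1.89 in Veh and 1.49 and 1.51 in MaR1, without overlap. The difference was -0.37 ± 0.06 (adjusted p = 0.0178), 1.30-fold lower, and the call was lost whichever array was left out (adjusted p 0.0758 to 0.0962). Biglycan (Bgn) gave 0.25 ± 0.07 (adjusted p = 0.0703), which was called after quantile normalization (0.0476), in the joint normexp setting (0.0462) and in the authors' table (0.0386), and lumican (Lum) gave -0.11 ± 0.13 (adjusted p = 0.589).

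The 2 tested crosslinking enzymes moved in opposite directions. Tissue transglutaminase (Tgm2), which crosslinks matrix proteins through glutamine and lysine side chains and is abundant in macrophages, had levels of 7.24 and 7.22 in Veh and 7.91 and 7.89 in MaR1. The groups did not overlap, and the difference was 0.67 ± 0.05, 1.60-fold (adjusted p = 0.00553), called whichever array was left out (adjusted p at most 0.0447). Lysyl oxidase-like 2 (Loxl2), a copper enzyme that crosslinks type IV and fibrillar collagen, had levels of 1.07 and 1.11 in Veh and 0.56 and 0.36 in MaR1. The difference was -0.63 ± 0.09 (adjusted p = 0.0160), 1.55-fold lower, but a second probe gave -0.22 ± 0.07 and was not called (adjusted p over probes = 0.097). The call of the brighter probe was lost without Veh replicate 1 (0.0770), Veh replicate 2 (0.0796) or MaR1 replicate 2 (0.0593), and with no filter (0.0594).

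**Figure D3:**
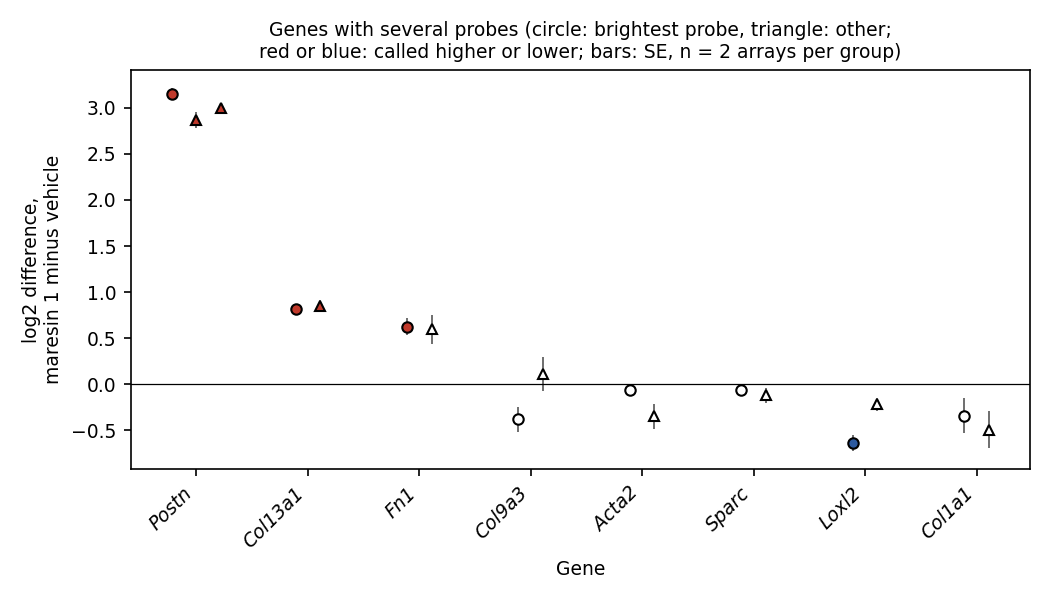
Difference on the log2 scale (y axis) of each kept probe for the 8 genes with several, with its standard error as a bar, circles for the brightest probe of a gene, triangles for the others, and filled symbols for called probes. Probes of 7 of the 8 genes share a sign, Col9a3 being the exception, and those of Acta2, Loxl2 and Postn differ in size.

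Alpha-smooth muscle actin (Acta2), the usual myofibroblast marker, had levels of 5.20 and 5.19 in Veh and 5.16 and 5.12 in MaR1, a difference of -0.06 ± 0.06 (adjusted p = 0.467). It was called lower in the joint normexp setting, with a difference of -0.20 (adjusted p = 0.0345), while quantile normalization alone gave -0.17 (adjusted p = 0.112). A second Acta2 probe was far dimmer, at -4.10 and -3.93 in Veh and -4.20 and -4.53 in MaR1. That probe gave -0.35 ± 0.14 (adjusted p over probes = 0.143), and another was well above background on no array. Transgelin (Tagln), a smooth muscle actin-binding protein, had levels of -0.93 and -0.81 in Veh and -1.24 and -1.14 in MaR1, a difference of -0.32 ± 0.08 (adjusted p = 0.0482), 1.25-fold lower. The call was lost whichever array was left out (adjusted p 0.112 to 0.184), after quantile normalization (0.0542), with no filter (0.0603) and with a replicate block (0.0611). Desmin (Des), the intermediate filament of stellate and muscle cells, did not rise well above background anywhere.

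Platelet-derived growth factor receptor alpha (Pdgfra), a tyrosine kinase receptor of mesenchymal cells, was the largest fall. Its levels were -3.61 and -3.50 in Veh and -4.34 and -4.47 in MaR1, or signals of 78.8 and 87.3 against 46.7 and 38.1, with no overlap. The difference was -0.85 ± 0.08 (adjusted p = 0.00710), 1.80-fold lower, called whichever array was left out (adjusted p at most 0.0478) and -0.40 in the joint normexp setting. Its partner Pdgfrb, the classic stellate cell receptor, had levels of -5.28 and -4.69 in Veh and -5.69 and -5.38 in MaR1, of which 1 MaR1 array was above background, and the difference of -0.55 ± 0.24 was not called (adjusted p = 0.163). Rgs5, a pericyte gene, gave -0.11 ± 0.06 (adjusted p = 0.245). Lrat, which stores vitamin A as its ester and defines quiescent stellate cells, was well above background on no array.

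**Figure D4:**
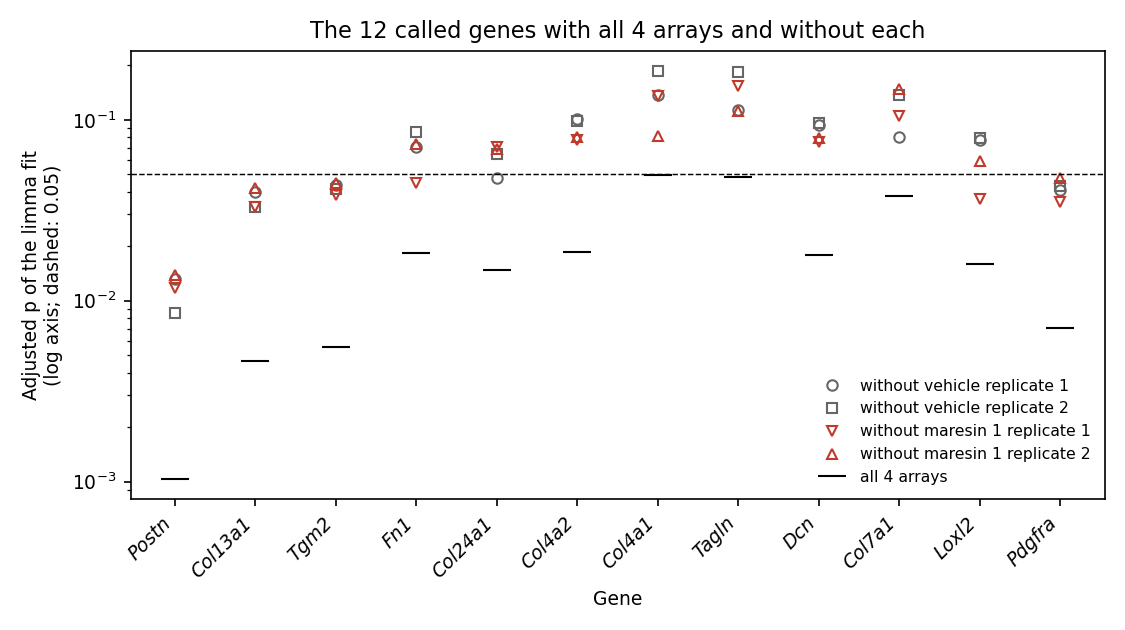
Adjusted p of the limma fit (log axis) of the 12 called genes with all 4 arrays (black bars) and after leaving out each array in turn (open symbols), with a dashed line at 0.05. Postn, Col13a1, Tgm2 and Pdgfra lie under the line in every fit, while Col4a1, Col4a2, Tagln, Dcn and Col7a1 lie above it whichever array was left out.

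Of the 12 calls, 4 held whichever array was left out and in every alternative that could be run, namely Postn, Col13a1 and Tgm2 (higher) and Pdgfra (lower). Of the 26 genes not called, 16 were called in no alternative.

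Genes that handle collagens and the matrix around them were also counted. Over all genes tested, 11.2% were called higher and 12.7% lower, and no list was tested as a set. Of 24 tested genes of collagen chain processing and export, 4 were called higher and 1 lower, with a median difference of -0.03. Adamts14, a procollagen amino-propeptidase, gave 1.48 ± 0.06 (adjusted p = 0.00183), and the prolyl 3-hydroxylase P3h2 was at least 1.81-fold higher, since no Veh array was well above background. Pcolce2, an enhancer of procollagen trimming, gave 0.57 ± 0.07 and P4ha1, a prolyl 4-hydroxylase subunit, 0.42 ± 0.06, but P4ha1 lost its call whichever array was left out (adjusted p up to 0.0938) and Pcolce2 kept it only without MaR1 replicate 1 (adjusted p = 0.0402, and up to 0.0637 otherwise).

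Of 6 tested lysyl oxidases and transglutaminases beyond those above, 2 were higher and 2 lower, with a median of -0.27. Loxl4 gave 1.59 ± 0.07 (adjusted p = 0.00245) and Loxl3 gave -0.64 ± 0.06 (adjusted p = 0.00666), in opposite directions within one enzyme family. The factor XIII chain F13a1 gave -1.37 ± 0.21 and Tgm3 gave 0.30 ± 0.05, of which Tgm3 lost its call whichever array was left out (adjusted p up to 0.139) and F13a1 without Veh replicate 1 (0.0932) or Veh replicate 2 (0.0761). Among 11 tested basement membrane partners of type IV collagen, 1 was higher and 4 lower (median -0.16). The laminin alpha-4 chain Lama4 gave 0.92 ± 0.08 (adjusted p = 0.00616), against -0.52 ± 0.06 for Lama5 and -0.68 ± 0.12 for Lamb2, which lost their calls without 1 array or another (adjusted p up to 0.0667 and 0.109).

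Among 15 tested elastic fibre genes 0 were higher and 4 lower, with a median of -0.03. These were Emilin2 (-0.56 ± 0.06), Fbln2 (-0.47 ± 0.09), Emilin1 (-0.52 ± 0.11) and Mfap2, at least 1.55-fold lower because no MaR1 array was well above background, and none held in every fit with an array left out (adjusted p up to 0.0683, 0.120, 0.153 and 0.119). Among 6 tested small leucine-rich proteoglycans and hyalectans beyond the 3 above, Prelp gave 0.35 ± 0.07 and Podnl1 -0.52 ± 0.11, which also lost their calls (adjusted p up to 0.163 and 0.145). Of 11 tested matricellular genes, 3 were higher and 2 lower, with a median of -0.11. Ccn1 (1.07 ± 0.06, adjusted p = 0.00312) and Thbs1 (1.01 ± 0.07, adjusted p = 0.00473) rose, while Tnxb (-1.43 ± 0.07, adjusted p = 0.00294) and Ccn2 (-0.85 ± 0.08, adjusted p = 0.00753) were lower. The Ccn2 call was lost without MaR1 replicate 2 (0.0518).

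Receptors for these proteins were divided. Of 18 tested receptors that bind collagen, fibronectin or osteopontin, 6 were higher and 6 lower, with a median of 0.07. The heparan sulfate receptor Sdc4 gave 2.03 ± 0.06 (adjusted p = 0.00150) and the integrin chain Itgb3 gave 1.08 ± 0.06 (adjusted p = 0.00298). Itgb5 gave -0.74 ± 0.06 (adjusted p = 0.00608) and the platelet collagen receptor Gp6 gave -1.12 ± 0.12 (adjusted p = 0.00917). In the TGF-beta pathway, 4 of 19 tested genes were higher and 4 lower (median 0.01). The ligand Tgfb3 gave 0.63 ± 0.06 (adjusted p = 0.00681), whereas the receptors Tgfbr1 and Tgfbr2 gave -0.63 ± 0.06 and -0.47 ± 0.07, calls lost without 1 array or another (adjusted p up to 0.0583 and 0.0848).

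Among the genes named from these lists, the differences of 6 shrank by a factor above 1.5 on the fold scale in the joint normexp setting, where each was still called. P3h2 came to 0.37, Loxl4 to 0.85, F13a1 to -0.69, Mfap2 to -0.22, Tnxb to -0.69 and Gp6 to -0.35. The values of P3h2 and Mfap2 fall below the "at least" folds given above, which hold for the main fit alone. Without a filter on dim probes, Gp6 (adjusted p = 0.0559), P4ha1 (0.0507), Tgfbr2 (0.0577), F13a1, Tgm3, Lamb2, Prelp and Fbln2 (0.0594 each), Mfap2 (0.0603), Podnl1 (0.0630) and Emilin1 (0.0636) lost their calls. Tgm3, Lamb2, Prelp, Podnl1, Fbln2 and Emilin1 also lost them with a replicate block (0.0516 to 0.0832), and Podnl1 after quantile normalization (0.0505).

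Markers of the cell types that could be in the cultures were read beside these genes. Their counts stand beside the same 11.2% called higher and 12.7% called lower over all genes. Summed levels are the processed signals of a list divided by the array's 75th percentile and added up. For the 23 stellate cell markers, of which 17 could be tested, 5 were higher and 6 lower. Lrat, Des, Hand2, Gfap and Tcf21 were well above background on no array and Ngfr on 1. Without the genes already described, the summed level was 46.0 and 48.4 in Veh and 59.4 and 55.9 in MaR1, and 5 of 13 were higher and 4 lower. The median difference of these 13 was -0.01, and 7 of the 13 were below 0. Of these, Lhx2 gave 2.57 ± 0.07 (adjusted p = 0.00126), Hgf -0.80 ± 0.05 (adjusted p = 0.00411), and Ednrb, the brightest of them, 0.61 ± 0.08 (adjusted p = 0.0134), and the last call was lost without Veh replicate 1 (0.0704), MaR1 replicate 1 (0.0634) or MaR1 replicate 2 (0.0605), and without a filter on dim probes (0.0592).

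The other mesenchymal lists moved less. Of 9 tested fibroblast and portal markers other than Lum, 2 were higher and 2 lower, and the summed level was 12.1 and 12.9 in Veh and 11.9 and 12.5 in MaR1. Thy1 gave -0.85 ± 0.06 (adjusted p = 0.00386) and Cd34 gave 1.59 ± 0.06 (adjusted p = 0.00174). Of 7 tested smooth muscle and pericyte markers outside the genes above, 0 were higher and 2 lower, and the summed level was 15.2 and 15.1 in Veh and 13.9 and 13.9 in MaR1. Those were Kcnj8 (-0.53 ± 0.07, adjusted p = 0.0126) and Cspg4, at least 1.48-fold lower, with adjusted p up to 0.0765 and 0.155 when an array was left out and 0.0505 and 0.0620 without a filter. Cspg4 also lost its call in the joint normexp setting (0.447), with an intensity trend (0.0959) and with a replicate block (0.0651), and Myh11, Cnn1, Lmod1, Synpo2 and Mustn1 were well above background on no array. The Cspg4 difference was as small as -0.07 among the alternatives, so its "at least" fold holds for the main fit alone. Of 5 tested mesothelial markers 0 were called, with summed levels of 0.930 and 1.04 in Veh and 0.876 and 0.844 in MaR1, and their brightest, Krt19, gave -0.33 ± 0.10 (adjusted p = 0.0876). The part of any of these cells in the differences above was not tested.

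Markers of cells outside the mesenchyme were read the same way. Of 16 tested sinusoidal endothelial markers, 7 were higher and 2 lower, with summed levels of 171 and 180 in Veh and 200 and 205 in MaR1. Dnase1l3 was 2.82-fold higher (adjusted p = 0.00194) and Pecam1 1.15 ± 0.06 (adjusted p = 0.00298), while Egfl7, the brightest, gave 0.10 ± 0.06 (adjusted p = 0.290). The median difference of the 16 was 0.15, but 7 of the 16 were below 0, the lowest at -0.78. Of 9 tested dendritic cell markers, 6 were higher and 1 lower, with summed levels of 51.0 and 47.5 against 74.1 and 74.7. Itgax gave 2.39 ± 0.08 and Batf3 1.89 ± 0.06 (adjusted p = 0.00154 and 0.00150), and the brightest, Siglech, gave -0.28 ± 0.09 (adjusted p = 0.0964).

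Of 12 tested T and NK cell markers, 3 were higher and 4 lower, a median difference of -0.14 and summed levels of 52.1 and 51.2 in Veh and 80.5 and 86.3 in MaR1. Gzma gave 1.37 ± 0.09 (adjusted p = 0.00405) and Cd8a 1.27 ± 0.06 (adjusted p = 0.00251). The lower ones, named after their values were seen, were Lck (-0.51 ± 0.06, adjusted p = 0.0120), Cd3g (-0.33 ± 0.06, adjusted p = 0.0240), Ncr1 (-0.34 ± 0.06, adjusted p = 0.0259) and Cd4 (-0.36 ± 0.07, adjusted p = 0.0295), and 8 of the 12 differences were below 0. Of 8 tested B cell markers, 3 were higher and 0 lower, with summed levels of 6.94 and 7.06 against 9.09 and 8.88. Ms4a1 gave 1.21 ± 0.09 (adjusted p = 0.00435), the brightest, Cd22, gave 0.15 ± 0.06 (adjusted p = 0.124), and Cd79b gave 0.74 ± 0.08 (adjusted p = 0.00887), which reached 0.0593 with an array left out.

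Hepatocyte markers had 0 higher and 2 lower of 14 tested, with summed levels of 51.9 and 49.1 in Veh and 44.0 and 43.7 in MaR1. Hnf4a gave -1.17 ± 0.11 (adjusted p = 0.00728), or -0.51 in the joint normexp setting, Ttr -0.41 ± 0.06 (adjusted p = 0.0194, up to 0.104 with an array left out, 0.0594 without a filter and 0.0502 with a replicate block), and Trf, the brightest, -0.11 ± 0.06 (adjusted p = 0.276). Of 14 tested Kupffer cell and macrophage markers, 1 was higher and 2 lower, with summed levels of 1404 and 1351 against 1325 and 1303. Adgre1 gave -0.67 ± 0.06 (adjusted p = 0.00634) and Slc40a1 -0.82 ± 0.08 (adjusted p = 0.00720). These were the 2 lower ones, but the median difference of the 14 was 0.04, and 8 of the 14 were above 0. Among 7 tested cholangiocyte markers, which include Spp1, Epcam alone was called (0.53 ± 0.11, adjusted p = 0.0338, up to 0.139 with an array left out, and lost without a filter, with an intensity trend and with a replicate block). Of 7 tested neutrophil markers 0 were called, and their brightest, Elane, gave -0.14 ± 0.10 (adjusted p = 0.373).

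**Figure D5:**
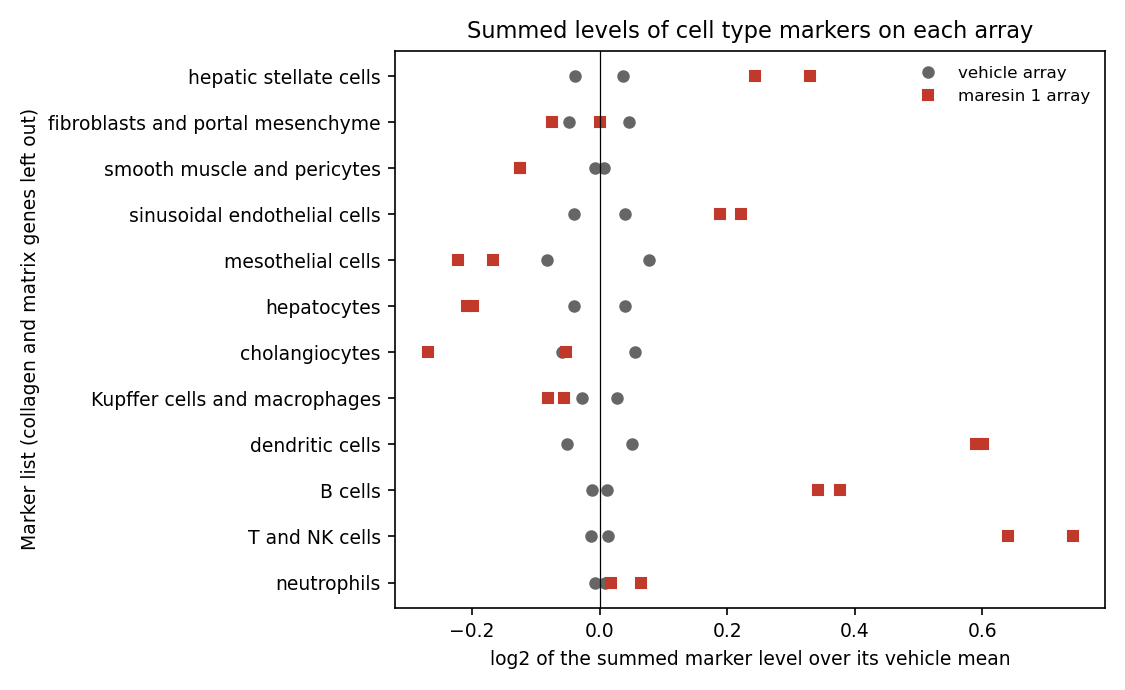
Summed level of each cell type marker list on the 4 arrays, as log2 of its ratio to the mean of the Veh arrays (x axis), without the collagen, matrix and stellate cell genes described above. The MaR1 arrays lie right of both Veh arrays for stellate, sinusoidal endothelial, dendritic, B, T and NK cell and neutrophil markers and left of them for smooth muscle, mesothelial, hepatocyte and Kupffer cell markers.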

How the data were processed

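The authors' scanner output holds linear intensity values per spot, deposited as Agilent Feature Extraction 11.0.1.1 made them, per the submitters' processing notes and the file headers. The deposited value table holds log2 values whose scale and filter are not given in the sources used here. Each of its columns had a median of 9.07 and tracked the log2 processed signal of its array (r = 1.00), and it served only as an alternative. Control and outlier-marked spots were left out, and spots of a probe were averaged. The processed signal was taken as log2 minus the array's 75th percentile. Kept were 31128 probes that Veh or MaR1 showed well above background on both its arrays, and the brightest of them stood for a gene. Probes were named through RefSeq accessions (GRCm38.p6 table, names only), which matched 58.3% of probes. Genes were tested with limma 3.58.1 under R 4.3.3 (Benjamini-Hochberg adjustment over 24067 genes, two-sided), after the fit was tested on simulated data. That simulation had 121 calls over 24050 genes, far fewer than here. It recovered 6% of log2 changes of 0.5, 54% of changes of 1, 80% of changes of 2 and 94% of changes of 3. With so few genes changed, a gene needed a smaller unadjusted p there, so these rates do not carry over to the genes here. A gene that was not called may still have changed. Where no array of a group was well above background, "at least N-fold" sets the brighter group against the lowest signal well above background. It refers to the main fit, and the alternatives can give smaller differences. The genes and lists were chosen with earlier results of these data known. Named were every called gene of the 62 and 14 set ones, up to 4 called genes of each pathway list with the smallest p, and of each cell type list the brightest on the Veh arrays and up to 2 called with the smallest p; others were named after their values were seen. Some genes that this rule names are not reported here. Figures were drawn with matplotlib 3.10.9.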

Additional observations from a re-analysis of the deposited data

How the results depend on the processing

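The 13 alternatives were other scalings, background correction, the authors' table, filters, probe rules, an intensity trend, a replicate block and leaving out each array. No direction of a called gene reversed. Of the genes described, 7 higher and 5 lower became 4 and 3 with no filter on dim probes, and 9 were lower with an intensity trend. Leaving out 1 array gave 3 to 6 higher and 1 to 3 lower. The remaining settings gave 5 to 8 higher and 4 to 7 lower. Over all genes, 2700 higher and 3068 lower became 1087 and 972 with no filter, 4524 and 4672 with an intensity trend, and 882 to 1207 and 668 to 1163 with an array left out. The cause was not tested.

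The replicate numbers were used as a replicate block, which gave 5 higher and 4 lower of the genes described and 1766 higher and 1926 lower over all genes. Deviations of same-numbered arrays from their group means correlated at r = -0.03 over all genes, which shows no shared deviation. The labels do not say what the numbers mark. Only the replicate block paired arrays by them, and the main fit did not. Many genes here are dim, and 4 arrays give little precision. Normexp used the median spot signal and was run only together with quantile normalization.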
